A study of Mus musculus with 73 samples.

Results

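The genes described here encode nuclear subunits of the mitochondrial respiratory chain and the ATP synthase, with cytochrome c and, since the rule went by symbol, the complex I assembly factors Ndufaf3 and Ndufaf7. They were every array feature with a single gene symbol that began with Nduf, Uqcr or Atp5, with Cox followed by 4 to 8, or that named a succinate dehydrogenase subunit, cytochrome c1 or cytochrome c. This rule gave 41 of 9596 features and 40 genes: 15 of complex I (both assembly factors included), 2 of complex II, 2 of complex III, cytochrome c, 12 of complex IV and 8 of complex V. Cox6a2, Cox7a1 and Cox8b, the forms of complex IV subunits that predominate in striated muscle, were read apart, which left 37 members. On the arrays that compared tumor with normal gland directly, 32 of the 37 members and the 3 muscle forms had values.

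The respiratory chain sits in the inner mitochondrial membrane. Complexes I and II pass electrons from NADH and succinate to ubiquinone, complex III passes them on to cytochrome c, and complex IV reduces oxygen. Complexes I, III and IV pump protons as they do so, and the ATP synthase, also called complex V, uses the proton gradient to make ATP. Muscle, heart and brown fat are rich in mitochondria, and many of these genes share promoter elements for the factors NRF1, GABP and ERR alpha.

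The arrays carried spotted cDNA clones and were read in 2 colours. On 35 arrays each tissue RNA (Cy3) was set against a universal reference RNA (Cy5), in 8 groups. TRAMP mice on the C57BL/6 strain, in which the probasin promoter drives the SV40 large T and small t antigens, gave 5 prostate tumors and 6 seminal vesicle tumors, and wild-type C57BL/6 mice gave 4 normal prostates and 4 normal seminal vesicles. FVB mice gave 4 mammary tumors with C3(1)/SV40 T/t-antigen and 4 lung tumors with CC10/SV40 T/t-antigen, CC10 being a club cell gene, and wild-type FVB mice gave 4 normal mammary glands and 4 normal lungs. A second set of 38 arrays paired each mammary tumor (Cy5) directly with wild-type mammary gland (Cy3) of the same labelled strain. These held 5 p53-/- transplant tumors (Balb/c), 4 p53fp/fp;WAP-cre and 5 Brca1 Co/Co;MMTV-cre;p53 tumors (both C57BL6/129sv), and, in FVB mice, 5 MMTV-PyMT, 5 MMTV-her2/neu, 5 MMTV-ras, 4 MMTV-myc and 5 C3(1)/SV40 T/t-antigen tumors. Cre driven by WAP or MMTV acts mainly in mammary epithelium. The labels do not say whether RNA was pooled or how animals map to arrays, so p-values measure the spread between these samples, and dyes were never swapped, so on the direct arrays dye and tumor cannot be told apart.

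Deposited values were log ratios, used here as log2, with array medians from -0.05 to 0.01 for the reference set and from -0.42 to 0.66 for the direct set. Each direct array was therefore centred on its own median. A gene was called where limma gave a Benjamini-Hochberg adjusted p below 0.05 over all genes of an array set. The labelled lungs fitted their name, with all 7 measured lung epithelium markers above the average of the remaining normal tissues in normal lung. The prostate tumors had a low mean of 8 epithelial markers, between -0.94 and -0.59, against 1.32 to 1.60 in normal prostate. All 10 measured proliferation markers rose in the tumors of each of the 4 sites.

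Promoters are shown for 4 genes on which the results turn: Sdhb and Cycs, which fell in all 8 mammary models, Uqcrfs1, which rose in every tumor versus normal comparison, and Cox7a1, a muscle form. Each run holds 250 bases before and 50 bases after the annotated start on the strand of the gene, from RefSeq on build GRCm38.p6. Sdhb lies at chr4:140961021-140961320 (plus strand), Cycs at chr6:50566520-50566819 (minus strand), Uqcrfs1 at chr13:30545267-30545566 (minus strand) and Cox7a1 at chr7:30183921-30184220 (plus strand). Capitals mark GCGCATG, an NRF1 half-site, CCGGAAG, an ETS core bound by GABP, or AAGGTCA, an ERR half-site, on either strand.
Sdhb: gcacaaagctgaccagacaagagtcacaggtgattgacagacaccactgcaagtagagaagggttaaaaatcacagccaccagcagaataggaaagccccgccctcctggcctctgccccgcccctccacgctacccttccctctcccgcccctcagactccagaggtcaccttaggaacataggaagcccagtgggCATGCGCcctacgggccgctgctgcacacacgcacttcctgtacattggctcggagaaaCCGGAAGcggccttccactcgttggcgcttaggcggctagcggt
Cycs: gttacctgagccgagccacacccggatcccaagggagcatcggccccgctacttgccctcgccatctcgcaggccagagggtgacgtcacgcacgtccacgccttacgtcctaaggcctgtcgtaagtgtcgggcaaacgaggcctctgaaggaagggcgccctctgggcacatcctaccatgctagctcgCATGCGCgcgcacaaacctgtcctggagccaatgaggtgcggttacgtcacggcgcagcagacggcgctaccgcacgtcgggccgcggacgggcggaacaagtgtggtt
Uqcrfs1: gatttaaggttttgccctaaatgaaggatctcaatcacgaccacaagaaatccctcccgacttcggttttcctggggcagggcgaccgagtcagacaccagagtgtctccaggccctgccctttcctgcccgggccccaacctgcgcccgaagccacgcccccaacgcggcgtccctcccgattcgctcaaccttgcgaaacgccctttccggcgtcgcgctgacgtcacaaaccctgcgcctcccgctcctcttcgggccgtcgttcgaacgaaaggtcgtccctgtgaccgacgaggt
Cox7a1: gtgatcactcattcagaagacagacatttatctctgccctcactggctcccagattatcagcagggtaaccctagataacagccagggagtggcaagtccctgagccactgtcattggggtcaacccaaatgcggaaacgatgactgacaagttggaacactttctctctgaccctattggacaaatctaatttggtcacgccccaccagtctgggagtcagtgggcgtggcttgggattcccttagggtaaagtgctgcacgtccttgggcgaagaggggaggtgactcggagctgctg

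Of the 40 genes, 35 had a promoter in the table, 33 of them outside the muscle forms. The NRF1 half-site lay in 8 of those 33 windows (24.2%), namely Atp5k, Atp5l, Cox5b, Cox6a1, Cycs, Ndufa11, Sdhb and Uqcr11, against 5.4% of 17492 coding genes. The ETS core lay in 10 (30.3%), against 12.9% of coding genes, and the ERR half-site in 5 (15.2%), against 4.73%. The windows of Uqcrfs1 and Cox7a1 held none of the 3 motifs. These are counts of letters in the window and were not tested. Genes with the NRF1 half-site did not all move alike: Cycs and Sdhb fell in all 8 mammary models, whereas Ndufa11 rose in 2 of them.

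In prostate tumors, most members of complexes I, II, IV and V were lower than in normal prostate. Of the 2 genes of complex III, Uqcr11 fell and Uqcrfs1 rose. Of the 37 members, 26 fell and 2 rose, where 32.2% of all 6767 genes tested fell and 29.2% rose. Their median change was -0.56, against -0.03 over all genes. All 5 tumor arrays lay below all 4 normal arrays for 24 members, where this held for 28.6% of all genes. Per array, the median over the 37 members was between -0.25 and -0.18 in the tumors (mean -0.22 ± 0.03, SD, n = 5) and between 0.18 and 0.56 in normal prostate (0.35 ± 0.16, SD, n = 4).

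**Figure D1:**
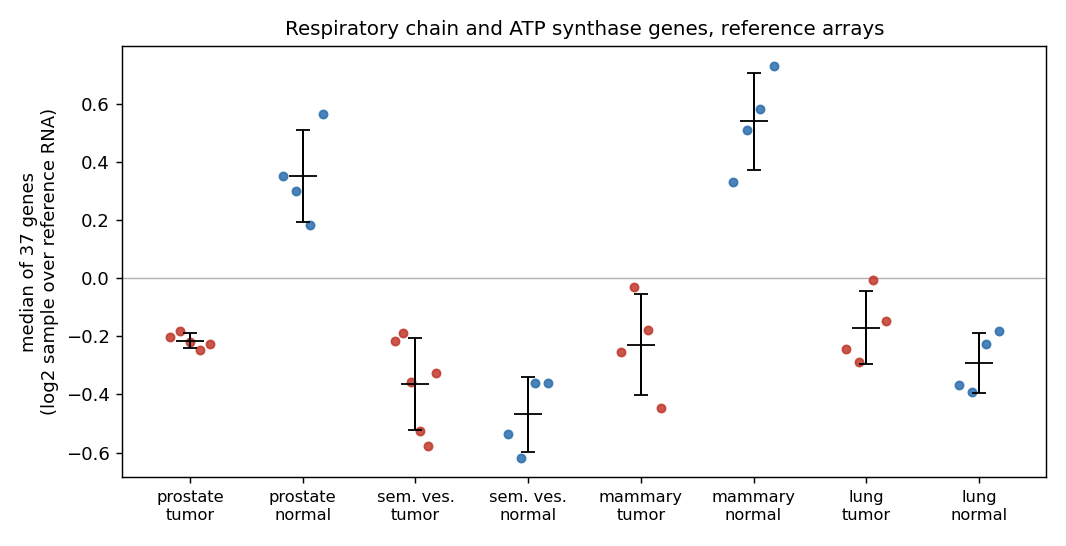
Median log2 ratio of the 37 members on each reference array (points), with the mean and SD of each group (black), tumors in red and normal tissue in blue. Normal prostate and normal mammary gland lie above 0 on all 4 arrays each, while every other array lies below 0.

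The genes with the largest falls in prostate tumors belonged to complexes I and V. Ndufv1, the subunit of complex I that binds NADH and the flavin, read -0.40, -0.79, -0.77, -0.91 and -1.11 in the tumors, against 0.78, 0.66, 0.50 and 0.96 in normal prostate. The groups did not overlap, and the change was -1.52 ± 0.13 (SE, limma adjusted p = 3.68e-12), a 2.87-fold lower ratio. Atp5md, a small membrane subunit of the ATP synthase, read between -0.97 and -0.77 in the tumors and between 0.87 and 1.58 in normal prostate, a change of -1.99 ± 0.17 (SE). Atp5l, subunit g of the synthase, changed by -1.53 ± 0.16 (SE). Cycs, the mobile carrier cytochrome c, read from -0.55 to 0.10 in the tumors and from 0.62 to 1.03 in normal prostate, a change of -0.99 ± 0.18 (SE, limma adjusted p = 1.7e-05). By complex, 9 of 15 genes of complex I, 2 of 2 of complex II, 6 of 9 of complex IV and 7 of 8 of complex V fell. Atp5b, the catalytic beta subunit, was the member of complex V that did not pass, at -0.21 ± 0.22 (SE).

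Normal prostate also carried a strong skeletal muscle signal. All 14 measured skeletal muscle markers of a list of 21 were lower in the tumors, and their mean per array was between -0.13 and 0.15 in the tumors, against 3.57 to 4.46 in normal prostate. Adipocyte markers moved the same way, with 10 of 11 lower and means of -0.19 to -0.06 in the tumors, against 1.43 to 1.62 in normal prostate. Adding that muscle mean to the model left 8 of the 37 members called (2 higher, 6 lower) with a median of -0.23, and adding both means left 6. The muscle mean did not overlap between the groups, so such a covariate could lower the calls of genes at large too. Shares of all genes called in these fits are not given, and the counts are not read as a result about the members. In such bulk RNA, fewer cells of a type and less RNA per cell cannot be told apart. Sdhb, the iron-sulfur subunit of complex II, changed by -0.46 ± 0.14 (SE) without a covariate and read 0.23 with the muscle mean, without passing the test. Cycs read -0.26 with the muscle mean and 0.26 with both means, neither past the test.

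Cox7a1 read -0.08, -0.37, -0.36, -0.21 and -0.32 in prostate tumors, against 3.87, 3.83, 3.70 and 3.27 in normal prostate, a 15.3-fold lower ratio (log2 change -3.93 ± 0.29, SE, limma adjusted p = 2.25e-13). Cox6a2 read between -1.12 and -0.58 in the tumors and between 2.36 and 3.35 in normal prostate, a 13.5-fold lower ratio. Their general counterparts went the other way or did not pass: Cox6a1 rose by 0.97 ± 0.19 (SE, limma adjusted p = 3.36e-05) and Cox7a2 changed by 0.36 ± 0.16 (SE, limma adjusted p = 0.0539). For Cox6a1 all 5 tumor arrays, at -0.44 to -0.25, lay above all 4 normal arrays, at -1.68 to -1.03. Cox8b fell by less, with a change of -0.37 ± 0.16 (SE, limma adjusted p = 0.0392). It read between -0.21 and 0.17 in prostate tumors and between 0.18 and 0.61 in normal prostate, without overlap, and its highest levels among the reference groups were in normal seminal vesicle, at 0.91 to 1.43.

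**Figure D2:**
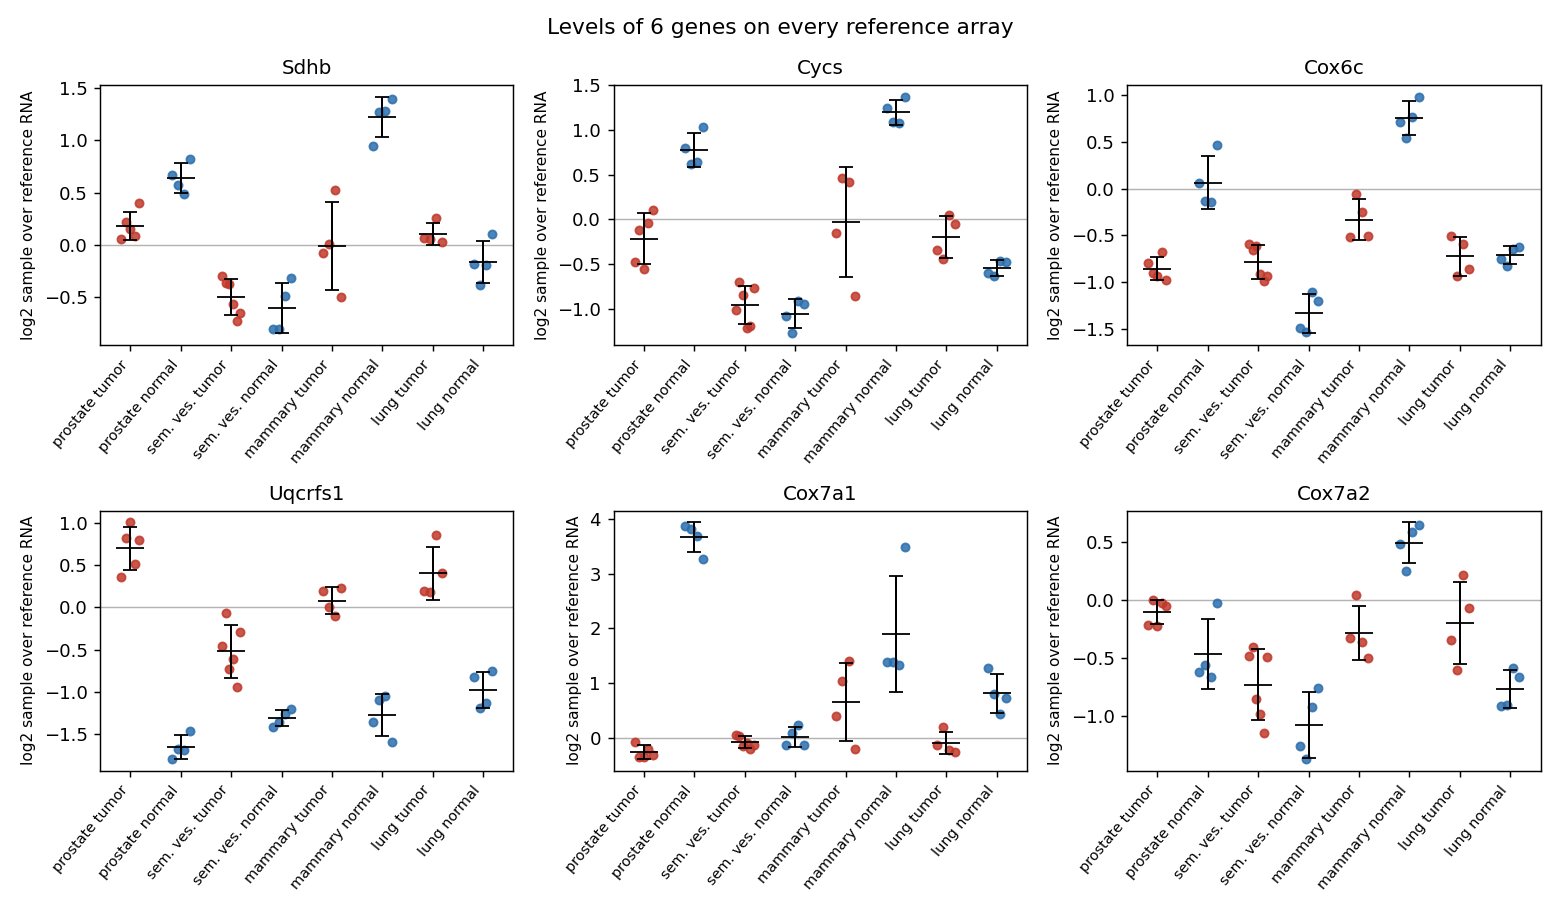
Log2 sample over reference RNA of Sdhb, Cycs, Cox6c, Uqcrfs1, Cox7a1 and Cox7a2 on every reference array (points), with group mean and SD (black), tumors in red and normal tissue in blue. Sdhb, Cycs and Cox6c are high in normal mammary gland, Uqcrfs1 is higher in the tumors of all 4 sites, and Cox7a1 reaches 3.87 in normal prostate.

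In seminal vesicle tumors of TRAMP mice, members moved both ways by small amounts. Of the 37 members, 6 rose and 7 fell, where 23.3% of all genes rose and 20.2% fell, and their median change was 0.11, against 0.04 over all genes. Cox6c, a small subunit of complex IV, ranged from -0.995 to -0.59 in the tumors (median -0.78, n = 6) and from -1.54 to -1.11 in normal seminal vesicle. Its groups did not overlap, and it rose by 0.55 ± 0.12 (SE, limma adjusted p = 0.000565). Atp5g3, which encodes the c subunit of the rotor ring, rose by 0.38 ± 0.10 (SE). Ndufa11, an accessory subunit of complex I, had the largest fall, to between 0.11 and 0.38 (median 0.20) in the tumors, against 0.84 to 1.32 in normal seminal vesicle. Its change was -0.83 ± 0.10 (SE, limma adjusted p = 1.14e-07). Cox7a2l, which takes part in supercomplex assembly, fell by 0.45 ± 0.10 (SE), and Uqcr11, a small subunit of complex III, fell by 0.44 ± 0.12 (SE). Ndufa1, another accessory subunit of complex I, fell by 0.53 ± 0.12 (SE). With runs of close identifiers in the submitters' database as a fixed block 3 members were called, and after quantile normalisation 4. The skeletal muscle mean overlapped between groups, at -0.15 to 0.70 in the tumors and -0.13 to 0.08 in normal seminal vesicle.

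In C3(1) Tag mammary tumors most members fell. Of the 37 members, 32 fell and 1 rose, where 20.1% of all 6771 genes fell and 16.6% rose, and the median change was -0.87, against -0.02 over all genes. All 4 tumor arrays lay below all 4 normal arrays for 30 members, against 17.9% of all genes. The array median was -0.26, -0.03, -0.18 and -0.45 in the tumors, against 0.33, 0.51, 0.58 and 0.73 in normal gland. By complex, 12 of 15 genes of complex I, 2 of 2 of complex II, 8 of 9 of complex IV and 8 of 8 of complex V fell. The 4 that did not pass besides the riser Uqcrfs1 were Ndufa11, Ndufaf7, Ndufb7 and Cox7a2l, with changes between -0.26 and -0.09.

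Sdhb read -0.07, 0.01, 0.52 and -0.50 in mammary tumors, against 0.95, 1.27, 1.28 and 1.39 in normal gland. No tumor reached the lowest normal gland, and the change was -1.23 ± 0.15 (SE, limma adjusted p = 5.15e-08). Cycs read -0.15, 0.46, 0.41 and -0.86 in the tumors, against 1.24, 1.09, 1.08 and 1.37 in normal gland, a change of -1.23 ± 0.19 (SE). With the adipocyte mean in the model Cycs read 0.30, and with both marker means 0.10, neither past the test. Atp5b, the catalytic beta subunit of the synthase, read between -0.87 and -0.18 in the tumors and between 0.40 and 0.95 in normal gland, a change of -1.31 ± 0.23 (SE). Cox6a1 changed by -1.33 ± 0.20 (SE), the largest fall of a member in mammary tumors and opposite in sign to its rise in prostate tumors. Ndufv3, a small subunit beside Ndufv1, changed by -1.31 ± 0.15 (SE), and Cox8a, the general counterpart of Cox8b, by -1.13 ± 0.17 (SE). Atp5a1, the alpha subunit of the synthase, changed by -1.01 ± 0.14 (SE). Cox4i1, a core-associated subunit of complex IV, changed by -1.10 ± 0.17 (SE).

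Muscle and fat signals differed between mammary samples. The skeletal muscle mean was 0.69, 1.33, 2.03 and 0.11 in the tumors, against -0.21, 0.04, 1.80 and 3.27 in normal gland, so the groups overlapped, and none of the 14 measured markers passed the test. Cox7a1 read 0.39, 1.04, 1.40 and -0.21 in the tumors, against 1.39, 1.39, 1.34 and 3.49 in normal gland. Without the 2 tumors and the 2 normal glands with a muscle mean above 1, 26 members were called, 25 of them lower, with a median of -0.78. The adipocyte mean did not overlap, at 0.84, 1.49, 2.18 and 0.65 in the tumors, against 4.10, 3.70, 4.18 and 3.68 in normal gland, and all 11 measured adipocyte markers fell. With the adipocyte mean as a covariate 1 member, Uqcrfs1, was called, and 3.35% of all genes were. The median change of the members was then -0.38.

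**Figure D3:**
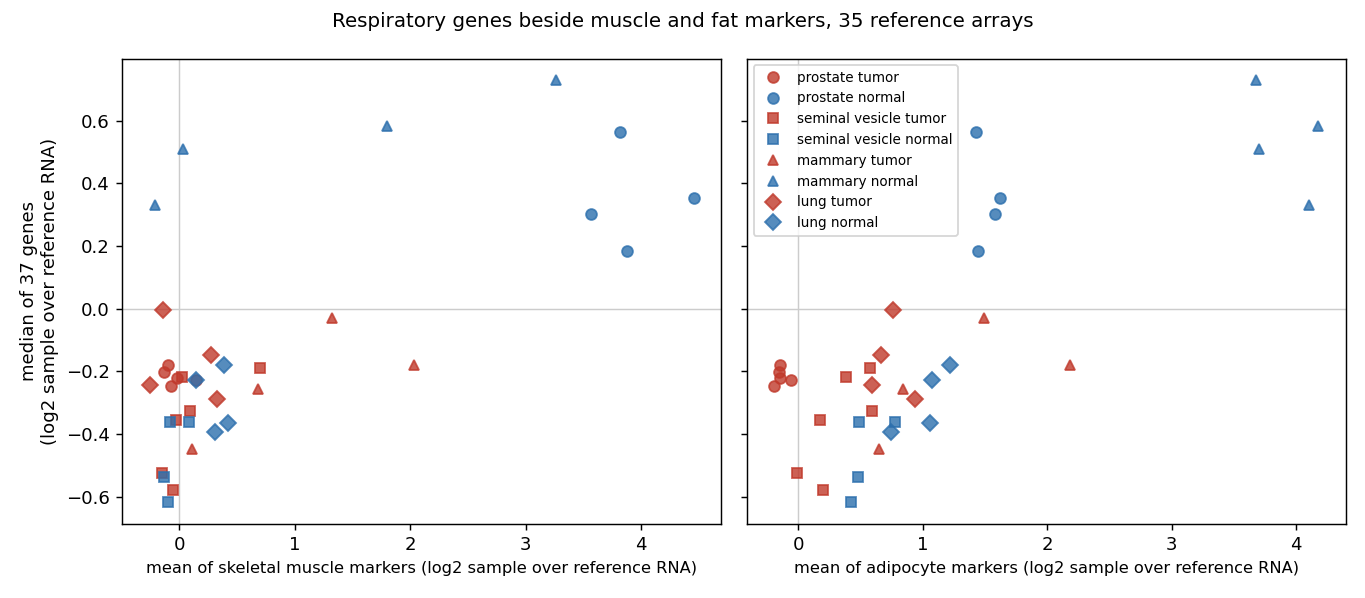
Median of the 37 members on each of 35 reference arrays (vertical) against the mean of skeletal muscle markers (left) and of adipocyte markers (right), all as log2 sample over reference RNA. The 2 normal mammary glands with muscle means of -0.21 and 0.04 have member medians of 0.33 and 0.51, and all 4 normal mammary glands have adipocyte means of at least 3.68.

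In CC10 Tag lung tumors few members fell, and the count that rose lay near the share of all genes. Of the 37 members, 6 rose and 2 fell, where 16.2% of all 6774 genes rose and 20.4% fell, and their median change was 0.08, against -0.06 over all genes. Apart from Uqcrfs1, the largest rises were those of Cox7a2 (0.57 ± 0.17, SE) and Atp5pb, a peripheral stalk subunit of the synthase (0.47 ± 0.10, SE). Atp5pb read 0.56, 0.44, 0.18 and 0.21 in the tumors, against -0.20, -0.32, 0.06 and -0.02 in normal lung. Atp5md changed by -0.46 ± 0.18 (SE) and Ndufa11 by -0.35 ± 0.11 (SE). Cycs (0.35 ± 0.19, SE) and Sdhb (0.26 ± 0.15, SE) did not pass. Without lung tumor 1, 5 members were called. The muscle forms Cox6a2, at -1.14 ± 0.44 (SE), and Cox7a1, at -0.91 ± 0.30 (SE), fell, and the mean of 11 cardiac and slow muscle markers was -0.12 to 0.14 in the tumors, against 0.56 to 0.85 in normal lung. The part of these markers in the result was not tested.

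Uqcrfs1 rose at every site. It encodes the Rieske iron-sulfur protein of complex III and was the only one of the 37 members that passed the test in the same direction at all 4 sites. In prostate tumors it read 0.36, 0.82, 1.01, 0.52 and 0.79, against -1.79, -1.68, -1.69 and -1.46 in normal prostate, a 5.12-fold higher ratio (log2 change 2.36 ± 0.15, SE, limma adjusted p = 1.62e-14). In seminal vesicle tumors it ranged from -0.95 to -0.07 (median -0.54), against -1.42 to -1.21 in normal tissue, a rise of 0.79 ± 0.15 (SE). In mammary tumors it read 0.19, 0.00, -0.10 and 0.23, against -1.35, -1.10, -1.05 and -1.59 in normal gland, a rise of 1.36 ± 0.16 (SE). In lung tumors it read 0.19, 0.18, 0.85 and 0.41, against -0.83, -1.19, -1.13 and -0.76 in normal lung, a rise of 1.38 ± 0.16 (SE). Tumor and normal arrays did not overlap at any site. The gene rested on 1 clone, and Uqcr11, the other gene of complex III on the arrays, fell in prostate, seminal vesicle and mammary tumors.

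The change differed between sites for most members, as it did for most genes. An F test of the tumor change among the 4 sites called 33 of 37 members, against 74.1% of all genes, with the smallest adjusted p among the members for Ndufv1, Cox6c and Atp5g3. Between prostate and seminal vesicle tumors of TRAMP mice, the change was lower in prostate for 23 members and higher for 3, where 24.1% and 22.6% of all genes were. Atp5md (-2.07 ± 0.24, SE), Atp5l (-1.72 ± 0.23, SE) and Ndufv1 (-1.70 ± 0.17, SE) had the most negative differences. Uqcrfs1 (1.56 ± 0.21, SE), Cox6a1 (0.85 ± 0.26, SE) and Ndufa11 (0.75 ± 0.14, SE) had the positive ones. Between mammary and lung tumors of FVB mice, the change was lower in mammary for 26 members and higher for none, where 12% of all genes were lower and 12.2% higher. Atp5b (-1.74 ± 0.32, SE), Cox6a1 (-1.68 ± 0.28, SE) and Cycs (-1.58 ± 0.27, SE) differed most. With the adipocyte mean as a covariate none of the 37 members differed between mammary and lung tumors. With the muscle mean in the model 8 differed between prostate and seminal vesicle. Shares of all genes that differed in these fits are not given beside the counts. In all, 9 members rose at one site and fell at another. The share of all genes that did so is not given, so this count is not read as a trait of the members. Among the 9 was Sdhd, the membrane anchor of complex II. Sdhd fell in prostate and mammary tumors and rose in seminal vesicle and lung tumors.

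The members also differed between the normal tissues. Among the 4 normal tissues 35 of 37 members differed (79.4% of all genes). By group mean, 26 members were highest in normal mammary gland and 20 were lowest in normal seminal vesicle. The shares of all genes highest or lowest in these tissues are not given, so the 2 counts are not read as a trait of the members. Normal prostate exceeded normal seminal vesicle for 26 members and was lower for 4, where 24.6% and 25.5% of all genes were. Cycs led, at 1.83 ± 0.19 (SE) on the log2 scale, while Cox7a2l (-0.82 ± 0.11, SE) and Ndufa11 (-0.78 ± 0.11, SE) were lower in normal prostate. Normal mammary gland exceeded normal lung for 30 members and was lower for none, where 17.3% of all genes were higher and 12.6% lower. Cycs (1.74 ± 0.19, SE), Cox6a1 (1.59 ± 0.20, SE) and Cox6c (1.47 ± 0.14, SE) had the widest gaps. The markers differed between these tissues too. The skeletal muscle mean was 3.57 to 4.46 in normal prostate and -0.13 to 0.08 in normal seminal vesicle, and with it in the model 14 members differed, 11 higher and 3 lower in prostate, as did 15.2% of all genes. The adipocyte mean was 3.68 to 4.18 in normal mammary gland and 0.74 to 1.22 in normal lung, and with it in the model no member passed limma's test, where 2.13% of all genes did and the median difference of the members was 0.50. Among the 4 tumor types 25 of 37 members differed (76.6% of all genes).

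Group means of most members spanned less among the tumors than among the normal tissues. Each member's range over the 4 tumor group means had a median of 0.47, against 1.21 over the 4 normal tissues. It was smaller over tumors for 36 of 37 members, the exception being Uqcrfs1 (1.22 over tumors, 0.68 over normal tissues). Over all genes the median range was 0.56 in tumors and 0.66 in normal tissues, and 58.1% of genes had the smaller range in tumors. Marker means narrowed as well: group means of skeletal muscle markers ran from -0.04 to 1.04 in tumors and from -0.06 to 3.93 in normal tissues, and those of adipocyte markers from -0.14 to 1.29 in tumors and from 0.54 to 3.91 in normal tissues. Their part in the result was not tested. Cox6c shows the pattern. Its tumor means ran from -0.86 in prostate to -0.33 in the mammary site, and its normal means from -1.34 in seminal vesicle to 0.76 in mammary gland. Prostate and seminal vesicle tumors, at -0.86 ± 0.12 and -0.78 ± 0.18 (SD, n = 5 and 6), overlapped in Cox6c, whereas normal prostate and normal seminal vesicle, at 0.06 ± 0.28 and -1.34 ± 0.21 (SD, n = 4 each), did not.

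**Figure D4:**
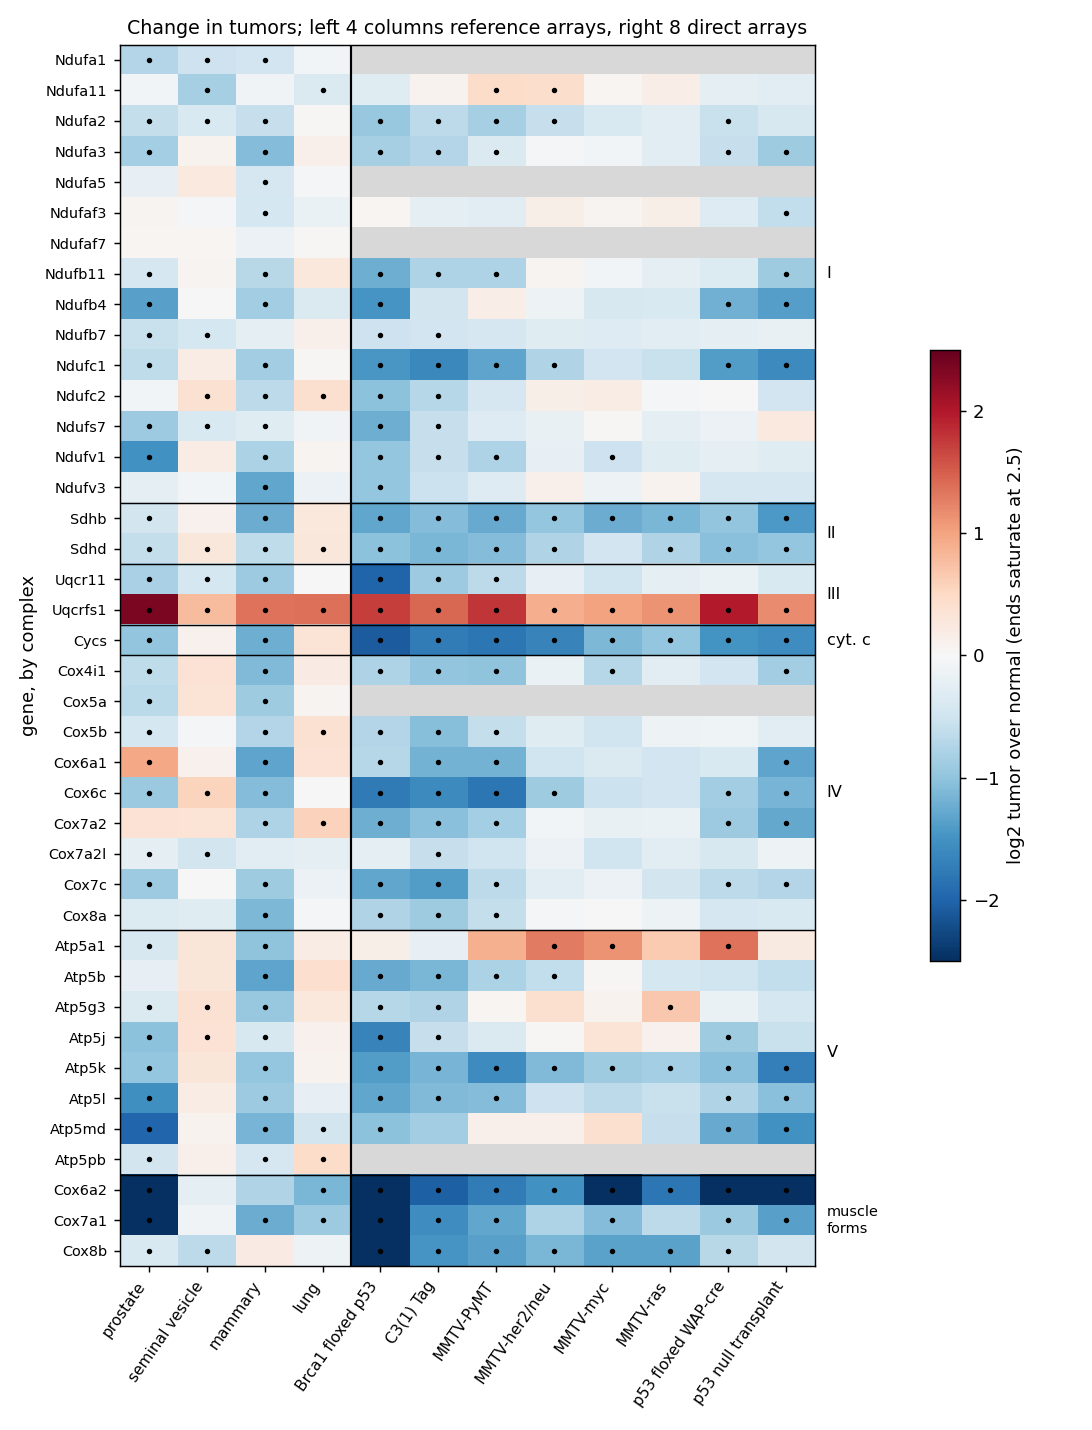
Log2 tumor over normal change of each of the 40 genes (rows, by complex) at 4 sites on reference arrays and in 8 mammary models on direct arrays (columns). Dots mark limma adjusted p below 0.05 and grey cells have no value. The prostate and mammary columns are mostly blue, Uqcrfs1 is red in all 12 columns, and Sdhb, Cycs and Atp5k are called lower in all 8 models.

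The direct arrays asked how far these mammary changes extend over other tumor models. In each of the 8 models more members fell than rose. In MMTV-myc and MMTV-ras tumors the falls lay near the shares of all genes. Brca1 floxed p53 tumors had 27 of 32 members lower and 1 higher (21.2% and 26.2% of all 5768 genes), with a median change of -1.02. C3(1) Tag tumors had 25 lower and 1 higher (19.5% and 22.4% of all genes), with a median of -0.82. MMTV-PyMT tumors had 19 lower and 2 higher (12% and 18.3% of all genes), with a median of -0.63. The p53 null transplants had 16 lower and 1 higher (11.1% and 9.66%), with a median of -0.62, and p53 floxed WAP-cre tumors had 14 lower and 2 higher (11.1% and 18%), with a median of -0.45. The smallest counts were in MMTV-her2/neu (8 lower and 3 higher, 10.9% and 15% of all genes), MMTV-myc (5 lower and 2 higher, 10.9% and 12.2%) and MMTV-ras tumors (4 lower and 2 higher, 8.89% and 9.97%). Their medians were -0.17, -0.26 and -0.29. Leaving out 1 array in turn gave 3 to 10 lower members in MMTV-myc and 3 to 5 in MMTV-ras tumors.

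**Figure D5:**
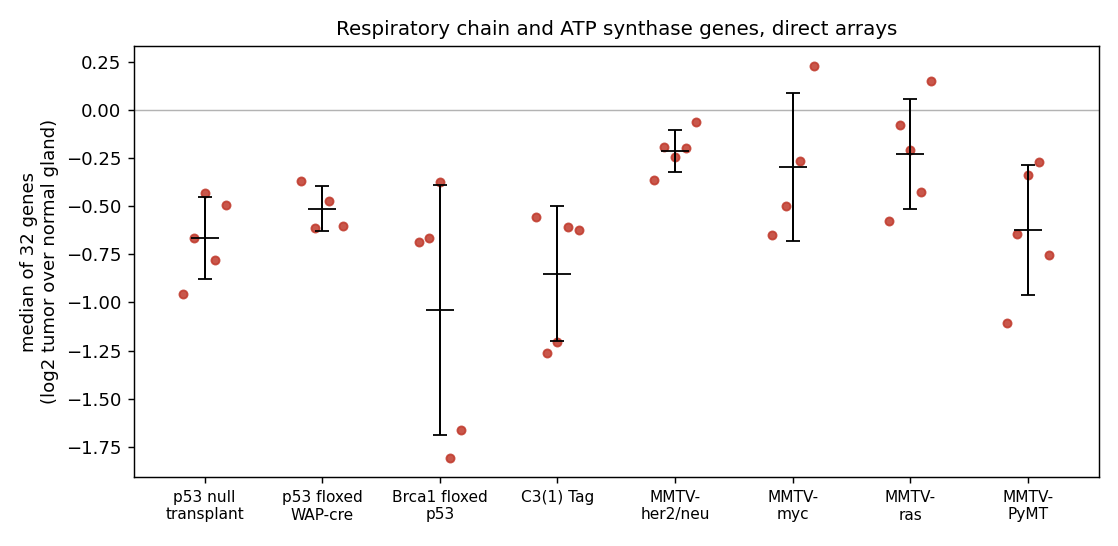
Median log2 tumor over normal gland ratio of the 32 members on each direct array (points), after each array was centred on its median, with the mean and SD of each model (black). Brca1 floxed p53 arrays 4 and 5 read -1.81 and -1.66, below every other array, and 1 MMTV-myc and 1 MMTV-ras array lie above 0.

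Cycs, Sdhb and Atp5k fell in all 8 models. Cycs changed by -2.07 ± 0.24 (SE) in Brca1 floxed p53 tumors, -1.81 ± 0.21 in MMTV-PyMT, -1.75 ± 0.21 in C3(1) Tag, -1.67 ± 0.21 in MMTV-her2/neu, -1.55 ± 0.21 in p53 null transplants, -1.49 ± 0.24 in p53 floxed WAP-cre, -1.12 ± 0.24 in MMTV-myc and -0.97 ± 0.21 in MMTV-ras tumors. It was below 0 on all 37 direct arrays that had a value. Sdhb changed by -1.43 ± 0.23 (SE) in p53 null transplants, and by -0.96 ± 0.23 in MMTV-her2/neu, where it was smallest. On its 37 arrays Sdhb was below 0 throughout, from -2.81 on a Brca1 array to -0.01 on a C3(1) Tag array. Atp5k, subunit e of the synthase, ran from -1.70 ± 0.19 (SE) in p53 null transplants to -0.86 ± 0.19 in MMTV-ras tumors. Sdhd fell in 7 models, and Cox6c and Ndufc1, an accessory subunit of complex I, in 6 each. In all, 18 of 32 members had a change below 0 in all 8 models. The share of all genes below 0 in all 8 models is not given, so this count is not read as a trait of the members.

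Cox6c showed how the models spread. It changed by -1.80 ± 0.24 (SE) in MMTV-PyMT, -1.77 ± 0.24 in Brca1 floxed p53, -1.60 ± 0.24 in C3(1) Tag and -1.16 ± 0.24 in p53 null transplant tumors. In MMTV-her2/neu and p53 floxed WAP-cre tumors the changes were -0.90 ± 0.24 and -0.86 ± 0.27, and in MMTV-myc and MMTV-ras tumors, at -0.54 ± 0.27 and -0.48 ± 0.24, they did not pass. The 4 MMTV-myc arrays read -0.99, -0.89, -0.94 and 0.68. Uqcr11 fell by 2.00 ± 0.20 (SE) in Brca1 floxed p53 tumors, a 4.01-fold lower ratio, and by 0.90 in C3(1) Tag and 0.66 in MMTV-PyMT tumors.

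Members that rose were few. Uqcrfs1 rose in all 8 models, by 1.99 ± 0.31 (SE) in p53 floxed WAP-cre, 1.79 ± 0.31 in MMTV-PyMT, 1.73 ± 0.27 in Brca1 floxed p53, 1.44 ± 0.27 in C3(1) Tag, 1.19 ± 0.27 in p53 null transplants, 1.13 ± 0.27 in MMTV-ras, 1.01 ± 0.31 in MMTV-myc and 0.91 ± 0.27 in MMTV-her2/neu tumors. It was above 0 on every array with a value. With the muscle mean in the model its estimate was below 0, without passing, in 5 of the 8 models. That estimate assumes equal muscle markers in tumor and normal gland, whereas their mean ran from -4.52 to -1.34 on the direct arrays. It therefore lies outside the data and cannot decide the sign. Atp5a1 rose in p53 floxed WAP-cre (1.36 ± 0.36, SE), MMTV-her2/neu (1.30 ± 0.32) and MMTV-myc tumors (1.12 ± 0.41), whereas its partner Atp5b fell in 4 models and rose in none. Atp5g3 rose by 0.67 ± 0.24 (SE) in MMTV-ras tumors and fell in Brca1 floxed p53 and C3(1) Tag tumors. Ndufa11 rose by 0.45 ± 0.16 (SE) in MMTV-PyMT and by 0.44 ± 0.16 in MMTV-her2/neu tumors.

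The muscle forms fell in most of the models too, and their difference from the general forms was not tested. Cox6a2 fell in all 8 models, from -4.52 ± 0.35 (SE) in Brca1 floxed p53 to -1.52 ± 0.35 in MMTV-her2/neu tumors, while Cox6a1 fell in 4, most in p53 null transplants (-1.33 ± 0.26). Cox7a1 fell in 6 models, most in Brca1 floxed p53 tumors (-2.59 ± 0.29), and Cox7a2 in 5, most in p53 null transplants (-1.28 ± 0.25). Cox8b fell in 7 models, from -2.89 ± 0.20 (SE) in Brca1 floxed p53 to -0.70 ± 0.22 in p53 floxed WAP-cre tumors, and Cox8a in 3. The 14 skeletal muscle markers averaged between -4.52 and -1.34 on the direct arrays, and the 9 measured adipocyte markers between -3.57 and -1.02. With the muscle mean in the model, 5 of the 32 members were called in Brca1 floxed p53 and 13 each in C3(1) Tag and MMTV-PyMT tumors. The count was 5 in p53 null transplant, 3 in MMTV-her2/neu, 1 in p53 floxed WAP-cre and none in MMTV-myc and MMTV-ras tumors. These fits assume equal muscle markers in tumor and normal gland, which no direct array had, so the counts cannot serve as adjusted results. Shares of all genes called in the same fits are not given.

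Brca1 floxed p53 arrays 4 and 5 stood apart, with member medians of -1.81 and -1.66, against -0.69, -0.66 and -0.38 on arrays 1 to 3. They also belonged to a separate run of close identifiers in the submitters' database. Without them 18 of the 28 members that could still be tested were called, 16 lower and 2 higher, with a median of -0.61.

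Among the 8 models 19 of 32 members differed (42.1% of all genes), with the smallest adjusted p among the members for Ndufs7, an iron-sulfur core subunit of complex I, Uqcr11 and Ndufa3. The p53 and Brca1 models together had 14 members lower and none higher than the 4 MMTV oncogene models (14.6% and 14.4% of all genes). The largest differences were in Atp5md (-1.28 ± 0.31, SE), Ndufb4 (-1.16 ± 0.18) and Atp5j, coupling factor 6 of the synthase (-1.06 ± 0.19). Without Brca1 arrays 4 and 5, 9 were lower and 1 higher. C3(1) Tag tumors had 7 members lower and none higher than the same oncogene models (4.68% and 7% of all genes), led by Atp5a1 (-1.21 ± 0.36, SE), Atp5g3 (-1.05 ± 0.27) and Cox7c (-1.01 ± 0.25). Without C3(1) Tag array 2 or array 3 the count was 2 or 3. MMTV-myc tumors differed from MMTV-her2/neu, MMTV-ras and MMTV-PyMT tumors in no member after adjustment by limma and in 1 at an unadjusted p below 0.05, where 0.0173% of all genes were called. No other tool was run. The C3(1) Tag and MMTV-myc contrasts lay within FVB mice, whereas strain and model cannot be told apart in the test among all 8 models or for the p53 and Brca1 models. The p53 and Brca1 arrays also shared no run of close database identifiers with the oncogene arrays. MMTV-myc arrays shared none with the other oncogene arrays. Run and model therefore cannot be told apart in those contrasts.

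C3(1) Tag mammary tumors were measured on both array sets. Of the 32 members on both, 28 fell in the reference set, 25 in the direct set and 23 in both. Of all genes tested, 20.1% fell in the reference set and 19.5% in the direct set. The share of all genes that fell in both is not given. Sdhb changed by -1.23 ± 0.15 (SE) on the reference arrays and by -1.08 ± 0.23 on the direct arrays, and Cycs by -1.23 ± 0.19 and -1.75 ± 0.21. Uqcrfs1 rose by 1.36 ± 0.16 and 1.44 ± 0.27. Of the muscle forms, Cox7a1 fell in both sets, whereas Cox8b and Cox6a2 passed in the direct set only. Cox8b changed by 0.21 ± 0.17 on the reference arrays and by -1.48 ± 0.20 on the direct arrays, and Cox6a2 by -0.75 ± 0.44 and -2.04 ± 0.35. These differences between the sets were not tested. Atp5a1 passed in the reference set and not in the direct set, a difference that was not tested, at -1.01 ± 0.14 and -0.21 ± 0.32, where the 5 direct arrays read 0.36, 0.36, -1.84, -0.57 and 0.64. Cox7c was carried by 2 clones, which changed by -1.24 ± 0.18 and -0.54 ± 0.13 (SE) in mammary tumors and by -1.01 ± 0.17 and -0.80 ± 0.12 in prostate tumors.

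Most measured enzymes of fatty acid oxidation and the citric acid cycle fell in prostate and mammary tumors. Of 11 measured fatty acid oxidation genes, 11 fell in prostate, 10 in mammary, 6 in lung and 2 in seminal vesicle tumors, where 2 others rose. Over all genes 32.2%, 20.1%, 20.4% and 20.2% fell at these sites, and 23.3% rose in seminal vesicle tumors. Skeletal muscle markers fell in the same prostate comparison and adipocyte markers in the prostate and mammary ones, as given above, and their part in these lists was not tested. Hadh, which oxidises hydroxyacyl-CoA, changed by -1.67 ± 0.12 (SE) in prostate and -1.76 ± 0.13 in mammary tumors, and Acadm, the medium-chain acyl-CoA dehydrogenase, by -3.30 ± 0.19 in p53 null transplants. In the 8 models between 5 and 10 of these 11 genes fell and none rose. Of 13 genes of the citric acid cycle and pyruvate oxidation, 11 fell in prostate and 11 in mammary tumors, against the same shares of all genes, none passed in lung, and 3 rose and 1 fell in seminal vesicle tumors. Cs, citrate synthase, changed by -1.53 ± 0.11 (SE) in mammary, -0.68 ± 0.10 in prostate and 0.31 ± 0.10 in seminal vesicle tumors. In lung tumors, the smallest adjusted p of this list was 0.102, for Dld (limma).

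Carriers, inhibitors and assembly factors were mixed. Of 10 measured genes for electron entry and for nucleotide and phosphate exchange, 7 fell and 1 rose in prostate tumors, where 32.2% of all genes fell and 29.2% rose. The riser was Atpif1, the inhibitor of the ATP synthase, at 1.81 ± 0.13 (SE), and it also rose in mammary (0.50 ± 0.14), seminal vesicle (0.68 ± 0.13) and lung tumors (0.75 ± 0.14). Slc25a4, the ADP/ATP carrier of muscle and heart, changed by -1.67 ± 0.17 (SE) in prostate and -0.74 ± 0.18 in mammary tumors, and by -2.32 to -1.61 over the 8 models. Of 17 assembly factors and regulators, 6 rose and 6 fell in prostate, 2 rose and 4 fell in seminal vesicle, 1 rose and 6 fell in mammary, and 4 rose and 1 fell in lung tumors. Over all genes 29.2% rose and 32.2% fell in prostate, 23.3% and 20.2% in seminal vesicle, 16.6% and 20.1% in mammary, and 16.2% and 20.4% in lung tumors, so the prostate counts lay near the shares of all genes. Tfam, which packages and transcribes mitochondrial DNA, rose by 0.87 ± 0.10 (SE) in prostate, 0.57 ± 0.10 in seminal vesicle and 0.67 ± 0.11 in lung tumors, and fell by 0.63 ± 0.13 (SE) in Brca1 floxed p53 tumors. Ppargc1a, a coactivator of mitochondrial biogenesis, rose by 1.11 ± 0.21 (SE) in MMTV-PyMT tumors, by 0.94 ± 0.23 in MMTV-myc and by 0.86 ± 0.21 in MMTV-ras tumors. It also rose by 0.83 ± 0.21 in C3(1) Tag and by 0.75 ± 0.21 in MMTV-her2/neu tumors. The members had medians below 0 in all of these models.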

How the data were processed

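The authors deposited 1 log ratio per feature and array, used here as log2. The labels give the dyes, and the sources used here do not give the image analysis, background correction, within-array normalisation or missing-value filter. The base was not stated: read as log2, a selection rule in the series text picked 2645 of 9574 features, against 3780 as natural logs and 4189 as log10. On the reference arrays direction was read as sample over reference. All 7 lung epithelium, 11 adipocyte and 14 skeletal muscle markers were above the average of the remaining normal tissues in normal lung, mammary gland and prostate. The direct arrays were read as tumor over normal, which those comparisons of normal tissues do not show. C3(1) Tag tumors were measured on both array sets. On the reference arrays adipocyte markers fell and proliferation markers rose in these tumors. On their direct arrays adipocyte markers averaged between -2.7 and -1.4, and proliferation markers between 0.45 and 2.20. The signs of the members, opposite between the sets for 1 of 32, are a result and do not show the direction. Features were averaged to genes (7486 features had 1 symbol, 483 several and 1627 none), with symbols from the platform table updated by gene ID to RefSeq, GRCm38.p6.

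The reference set of 35 arrays was used as deposited and each of 38 direct arrays was centred on its median. Each array had a value for between 7042 and 9572 features, and the number of arrays limits the precision. limma 3.58.1 in R 4.3.3 (lmFit, eBayes) was fitted over all genes with at least 3 values per group, with 1 mean per group. P-values were Benjamini-Hochberg adjusted over all genes. The steps were also tested on simulated data. The members and lists were chosen with earlier results of these data known. Genes named were up to 3 rises and 5 falls per comparison, up to 3 each way per difference, the 3 smallest p of an F test, a fixed anchor per complex, the muscle forms with their general forms, and up to 3 per other list. Values of other members, among them Ndufa11, Uqcr11, Ndufc1, Atp5k and Cox7a2l, and of pathway genes in further comparisons were chosen after being seen. Alternatives covered scaling, filters, covariates, runs of close database identifiers, which are not stated to be batches, and leaving out arrays. Replicate numbers did not pair the samples: over 16 same-numbered tumor and normal pairs the correlation of deviations from group means was between -0.24 and 0.22, and 2 were over 0.1.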

Additional observations from a re-analysis of the deposited data

Results flagged for a closer look

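Of 253 sets of arrays tested, 12 held an array far from the rest of its group, where chance flags about 1 in 20. Normal prostate 4 stood apart for Cox7a2 (-0.023) and Cox8a (-0.51). Normal mammary gland 4, which also had the highest skeletal muscle mean of its group (3.27), stood apart for Cox7a1 (3.49). Normal lung 4 stood apart for Cox6a1 (-0.13). Lung tumor 3 stood apart for Ndufv1 (-0.002), Sdhb (0.26) and Cox8a (-0.44). On the direct arrays this held for Atp5a1 on p53 floxed WAP-cre array 1 (2.42), Cycs on C3(1) Tag array 3 (-2.75), Atp5g3 on MMTV-her2/neu array 4 (1.13), Cycs on MMTV-myc array 2 (-2.31) and Cox6c on MMTV-myc array 4 (0.68).

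Differences of the tumor change passed limma's test of the difference itself. Prostate minus seminal vesicle gave Uqcrfs1 1.56, Cox6a1 0.85, Ndufa11 0.75, Atp5md -2.07, Atp5l -1.72 and Ndufv1 -1.70. Mammary minus lung gave Atp5b -1.74, Cox6a1 -1.68 and Cycs -1.58. C3(1) Tag minus the MMTV oncogene models gave Atp5a1 -1.21, Atp5g3 -1.05 and Cox7c -1.01. The p53 and Brca1 models minus the oncogene models gave Atp5md -1.28, Ndufb4 -1.16 and Atp5j -1.06.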

How the results depend on the processing

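Counts of called members moved by over 1.5 times under the settings given here, and the cause was not tested unless stated. Shares of all genes called under the same settings are not given in this section. Its counts are therefore not read as results about the members. With the mean of skeletal muscle markers in the model the count was 8 in prostate, 8 for prostate minus seminal vesicle, 14 for normal prostate minus normal seminal vesicle, 5 in Brca1 floxed p53, 13 in C3(1) Tag, 13 in MMTV-PyMT, 3 in MMTV-her2/neu, 0 in MMTV-myc, 0 in MMTV-ras, 1 in p53 floxed WAP-cre, 5 in p53 null, 12 among the 8 models and 7 for p53 and Brca1 minus oncogene models. With the adipocyte mean it was 13 in prostate, 1 in mammary, 14 for prostate minus seminal vesicle, 0 for mammary minus lung, 0 for normal mammary minus normal lung and 20 among the sites. With both means it was 6, 1, 9, 0 and 0 for the first 5 of these, 14 among the sites, 14 for normal prostate minus normal seminal vesicle and 21 among normal tissues. For each model against normal gland, the fit with the muscle mean assumes equal muscle markers in both, which no direct array had. The covariate settings with both means, and those that leave out Brca1 or muscle-rich mammary arrays, were chosen after seeing the data.

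Only genes with a value on every direct array left 13 members tested, of which 12 were called in Brca1 floxed p53, 11 in C3(1) Tag, 9 in MMTV-PyMT, 4 in MMTV-her2/neu, 1 in MMTV-myc, 0 in MMTV-ras, 6 in p53 floxed WAP-cre, 5 in p53 null, 10 among the models, 5 for p53 and Brca1 minus oncogene models and 4 for C3(1) Tag minus oncogene models. Direct values as deposited gave 17 in C3(1) Tag and 2 for C3(1) Tag minus oncogene models. Without Brca1 arrays 4 and 5 these were 18 in Brca1 floxed p53 and 11 for C3(1) Tag minus oncogene models. Fitting the compared models alone gave 3 in MMTV-myc. Identifier runs as a fixed block gave 3 in seminal vesicle, 13 for prostate minus seminal vesicle and 18 for normal prostate minus normal seminal vesicle, as a random block 9 in p53 floxed WAP-cre, and the first run alone 4 in lung. Quantile normalisation gave 4 in seminal vesicle.

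Leaving out 1 array in turn gave 2 to 10 members for C3(1) Tag minus oncogene models, 4 to 10 in MMTV-myc (4 without array 2) and 5 to 10 in lung. With the replicate number as a block, which does not pair these samples, 29 members were called in prostate, 12 in seminal vesicle, 33 in mammary and 7 in lung.

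Signs were compared only for the genes named by rule in a comparison that passed the main fit. They turned for these genes, none past the test. For the models on direct arrays, these estimates lie outside the range of the muscle mean, so they cannot decide the sign. With the muscle mean Cox6a2 read 0.10 in C3(1) Tag, 0.15 in MMTV-PyMT, 0.56 in MMTV-her2/neu, 0.14 in MMTV-ras and 0.062 for prostate minus seminal vesicle. Uqcrfs1 read -0.59 in Brca1 floxed p53, -0.36 in MMTV-her2/neu, -0.41 in MMTV-myc, -0.055 in MMTV-ras and -0.51 in p53 null, and Sdhb 0.23 in prostate and 0.15 for prostate minus seminal vesicle. With the adipocyte mean Cox7a1 read 0.068 in mammary and -0.35 for normal mammary minus normal lung, Cycs 0.30 in mammary, and Sdhb 0.25 in prostate and 0.047 for prostate minus seminal vesicle. With both means Cycs read 0.10 in mammary, 0.26 in prostate and 0.063 for prostate minus seminal vesicle, and Sdhb 0.57 in prostate and 0.41 for prostate minus seminal vesicle.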
